A study of Mus musculus with 14 samples.

Results

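The Egf receptor family consists of the receptor tyrosine kinases Egfr, Erbb2, Erbb3 and Erbb4, and its ligands are small proteins cut from membrane-bound precursors. From the 54532 genes of the count table, 9 were chosen by gene name, 4 receptors (Egfr, Erbb2, Erbb3, Erbb4) and 5 ligands (Egf, Hbegf, Btc, Nrg1, Nrg4). Of the 9, 8 had enough reads to be tested and Nrg1 did not. Ligand binding makes the receptors pair and phosphorylate each other, which starts signaling through Ras and MAP kinases and through PI3 kinase and Akt. Egf, heparin-binding Egf (Hbegf) and betacellulin (Btc) bind Egfr, Hbegf and Btc also bind Erbb4, and the neuregulins Nrg1 and Nrg4 bind Erbb3 or Erbb4. Erbb2 has no known ligand of its own and serves as a partner of the others. In skeletal muscle, neuregulin signaling is best known at the neuromuscular junction, the muscle spindle and the Schwann cells of the nerve.

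RNA was sequenced from skeletal muscle of male FVB/N mice, soleus and gastrocnemius by the study's methods, in 14 libraries, and the labels do not say which muscle a library came from. EC-Myc OE mice carried a human c-Myc transgene under a tetracycline-responsive promoter (Tet-O-Myc) together with the tTA transactivator driven by the endothelial Cdh5 promoter. The transgene was switched on by taking the mice off doxycycline diet at 4 to 6 weeks of age. CT were littermates with Tet-O-Myc and without tTA. Mice of both genotypes were fed control diet (CTD) or western diet (WD, a high-fat diet) for 20 weeks by the labels, which gave CT-CTD (n = 3), CT-WD (n = 3), OE-CTD (n = 4) and OE-WD (n = 4). The study's text gives a shorter time on diet for the transcriptome, and its legend sets the group sizes by diet where the labels set them by genotype. The labels were kept. Exchanging the names CT-WD and OE-CTD would turn each diet comparison into a genotype comparison and the reverse, and would leave the interaction as it is. At an unadjusted p under 0.05 and a fold over 1.5, the labels give 471 genes for diet in CT, 212 for diet in EC-Myc OE and 887 between genotypes on WD, and the exchanged names give 1101, 887 and 212. Zbtb16 and Rabif, chosen after their values were seen, tell the 2 namings apart by direction. The ratio of mean FPKM in OE-WD to that in CT-WD was 0.694 for Zbtb16 and 0.871 for Rabif by the labels, and 2.35 and 2.04 with the names exchanged. Acsl3 and Rrad, which the study also names, kept their direction, with 1.12 and 0.691 by the labels and 1.57 and 0.639 with the names exchanged. The study's legend, with n = 3 on CTD and n = 4 on WD, has the group sizes of the exchanged names. The study's own comparisons, in the order of their gene numbers and in the direction of Zbtb16 and Rabif, also follow the exchanged names and not the labels. This shows which names the study's analysis used and not which are true of the animals, which no value here tests. Every statement on diet or genotype below rests on the labels, and under the exchanged names a difference between OE-CTD and CT-CTD, such as that of Egfr, would be one between diets in CT. The level of the transgene itself was left aside.

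The libraries held between 21833839 and 28519159 counted reads, with medians of 24807368 in CT-CTD, 23814408 in CT-WD, 24226483 in OE-CTD and 26198262 in OE-WD. CPM scales the reads of a gene to library size after TMM normalization and compares libraries, and FPKM also divides by gene length and compares genes. Skeletal muscle markers were present throughout, with all 6 muscle fibre genes read in every library and summed levels between 69694 and 98422 CPM, led by Acta1. OE-CTD 4 and OE-WD 4 stood apart from the other libraries of their groups, with normalization factors of 0.888 and 0.899, the highest muscle fibre sums (98422 and 97129 CPM) and the lowest Schwann cell sums of their groups (105 and 123 CPM). The Schwann cell sum of OE-WD 1 was close to that of OE-WD 4, at 127 CPM. CT-WD 1 and CT-WD 3 differed the most of all pairs within a group, with a chi-square per degree of freedom of 50.8 (CT-WD 2 had 30.5 and 29.7 against them). CT-WD 1 had higher marker sums than the rest of its group for fibroblasts (981, 355 and 353 CPM in order of replicate), tendon (443, 81.6 and 105 CPM) and epidermis (78.9, 8.74 and 9.11 CPM). It was also the library with the highest level of Egfr. All 4 OE-WD libraries share the digits of their description code, as do 3 of the 4 OE-CTD libraries, and what the codes mark is not given in the sources used here, so a shared litter or cage and the group cannot be told apart.

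The 9 genes differed widely in level in these muscles, and the ligands Hbegf and Egf led, ahead of all receptors. Mean FPKM over the 14 libraries was 7.80 (SD 4.55) for Hbegf, 3.56 (SD 0.397) for Egf, 1.30 (SD 0.213) for Erbb3, 1.29 (SD 0.212) for Erbb2 and 0.929 (SD 0.225) for Egfr. Below these came Nrg4 at 0.226 (SD 0.0779), Btc at 0.145 (SD 0.0944), Erbb4 at 0.0536 (SD 0.0206) and Nrg1 at 0.00375 (SD 0.00670). The means of Erbb3 and Erbb2 differed by less than the SD of either, those of Nrg4 and Btc by less than the SD of Btc alone, and the ranges of Egfr (0.492 to 1.35 FPKM) and Erbb2 (1.04 to 1.74 FPKM) overlapped. Hbegf stood above 74.5% of the tested genes by mean FPKM and Egf above 58.4%, whereas Erbb4 stood above only 0.977%. For the low genes counting limits precision, since Erbb4 had 7 to 27 reads per library and Btc 0 to 36, where 3 reads are worth between 0.0989 and 0.153 CPM. Such floors cover counting error only.

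Egfr, the receptor for Egf, was lowest in CT-CTD and was the 1 member of the family altered at an adjusted p-value in edgeR's test with all libraries and the filter on low counts, between the groups labelled OE-CTD and CT-CTD. Other settings called other members or dropped this call. Its CT-CTD libraries had 7.27, 5.06 and 6.35 CPM in order of replicate, and its CT-WD libraries 14.2, 9.66 and 12.0 CPM. OE-CTD had 10.3, 9.89, 9.64 and 10.9 CPM, and OE-WD 8.48, 11.2, 9.05 and 10.7 CPM. Every library outside CT-CTD lay above all 3 CT-CTD libraries, while the other groups overlapped each other. Group means were 6.23 ± 1.11 CPM (SD, n = 3) in CT-CTD, 11.9 ± 2.25 CPM (SD, n = 3) in CT-WD, 10.2 ± 0.556 CPM (SD, n = 4) in OE-CTD and 9.86 ± 1.30 CPM (SD, n = 4) in OE-WD.

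On control diet Egfr rose 1.63-fold in EC-Myc OE over CT, by 0.71 (SE 0.156, adjusted p = 0.0293) on the log2 scale in edgeR's quasi-likelihood test. In that comparison 1.91% of the 15458 tested genes were altered, which means more than 1.5-fold at an adjusted p under 0.05. Limma did not call it, with an adjusted p of 0.0665 on log2(FPKM + 1) and 0.0573 on log2(FPKM + 0.1). The call also rested on single libraries, because with each of the 14 left out in turn the log2 value stayed between 0.58 and 0.83, but the adjusted p was 0.135 without CT-CTD 2, 0.106 without CT-CTD 3, and 0.0636, 0.0684 and 0.0627 without OE-CTD 1, 2 and 3. Without OE-CTD 4 and OE-WD 4 together, a setting added after the data were seen, it was 0.67 (adjusted p = 0.0461).

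Between the diets in CT, Egfr had a 1.92-fold higher mean in CT-WD, with every CT-WD library above every CT-CTD library. Its value of 0.94 (SE 0.165, adjusted p = 0.277) had the smallest p of all tested genes in edgeR's model, yet did not pass the adjusted level. The adjusted p was 0.000631 in DESeq2 and 0.00210 in edgeR on unfiltered genes, so whether Egfr passes here depends on the tool and on the filter. In EC-Myc OE the diets did not separate, at -0.05 (SE 0.140, adjusted p = 1). The difference between both diet responses, tested as the interaction of diet and genotype, was -0.99 (SE 0.216, adjusted p = 0.675). On WD, OE and CT differed by -0.28 (adjusted p = 0.368). Averaged over diets the genotype difference was 0.21 (adjusted p = 0.242), and averaged over genotypes the diet difference was 0.45 (adjusted p = 0.487).

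**Figure D1:**
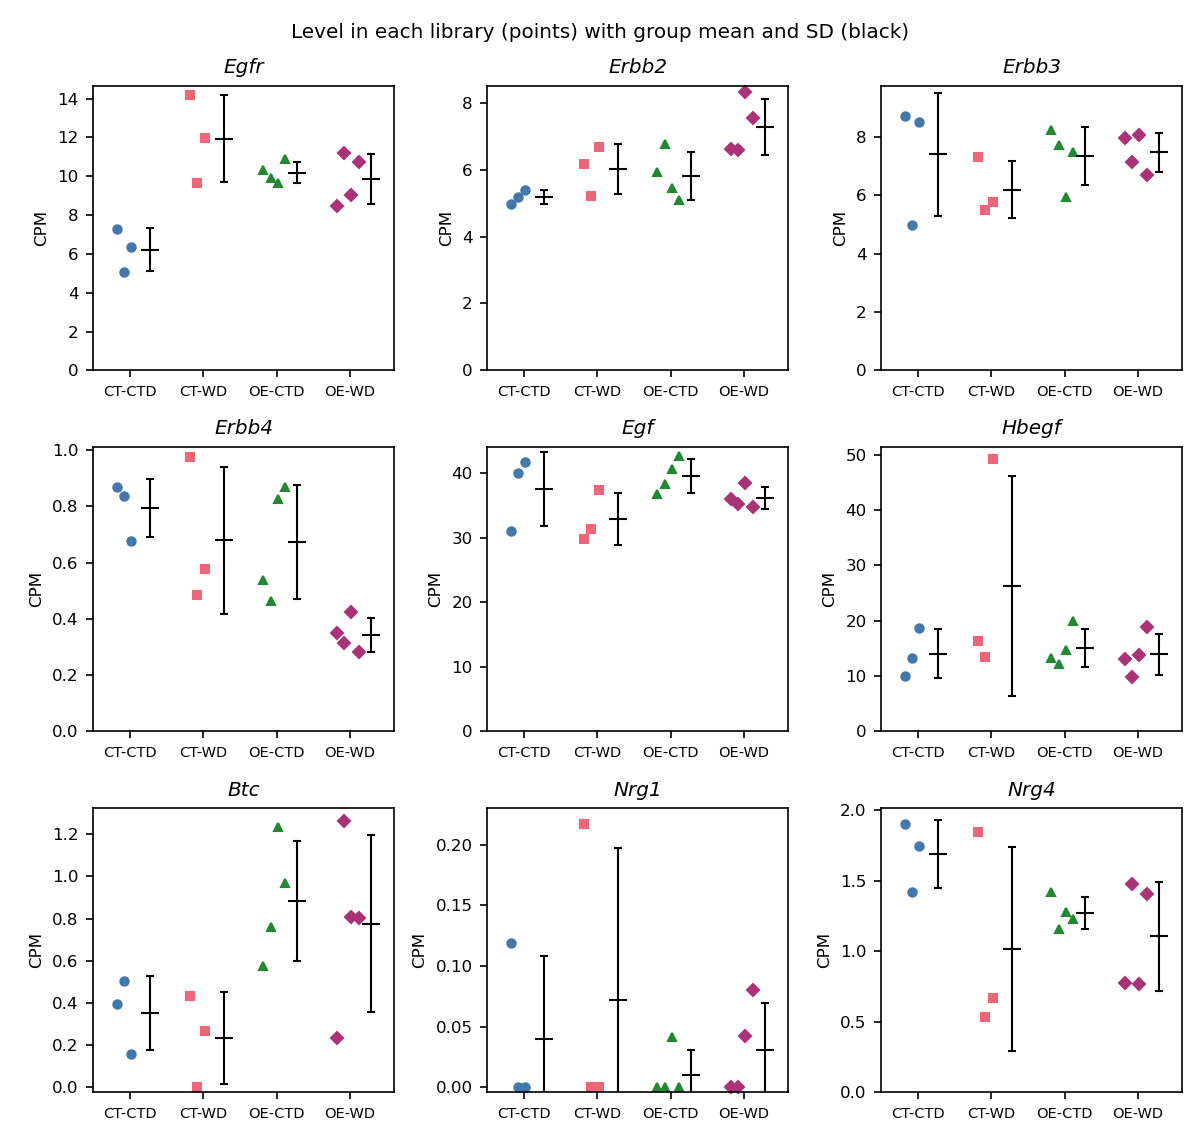
Level of each of the 9 genes in CPM (vertical axes, from 0) in every library of the 4 groups (horizontal axes), with the group mean and SD in black, where parts of SD bars below 0 are not drawn. The 3 CT-CTD libraries lie lowest for Egfr, the 4 OE-WD libraries lowest for Erbb4, and CT-WD 3 stands alone for Hbegf at 49.3 CPM.

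Erbb2, the receptor without a ligand of its own, varied little, between 4.98 and 8.33 CPM, and its highest group was OE-WD. Levels were 4.98, 5.19 and 5.40 CPM in CT-CTD, 6.18, 5.22 and 6.66 CPM in CT-WD, 5.94, 6.76, 5.44 and 5.10 CPM in OE-CTD, and 6.61, 6.59, 8.33 and 7.55 CPM in OE-WD. OE-WD 3 and OE-WD 4 were above every other library, and the remaining pair of OE-WD fell within the range of CT-WD and OE-CTD. OE-WD and OE-CTD differed by 0.32 (SE 0.130, adjusted p = 1) on the log2 scale. The mean diet difference was 0.27 (adjusted p = 0.696) and the mean genotype difference 0.22 (adjusted p = 0.198), all short of the 1.5-fold limit.

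Erbb3, a neuregulin receptor with little kinase activity of its own, gave no p under 0.05 in edgeR's test of any of the 7 comparisons with all libraries. Without CT-CTD 2 its p was 0.0151 between CT-WD and CT-CTD and 0.0384 for the interaction, with adjusted p-values of 0.979 and 0.984. It ran from 4.98 to 8.73 CPM in CT-CTD, 5.51 to 7.33 CPM in CT-WD, 5.93 to 8.24 CPM in OE-CTD and 6.71 to 8.08 CPM in OE-WD, so all groups overlapped. CT-CTD held both the highest library (CT-CTD 1) and the lowest (CT-CTD 2). The Schwann cell sum had the same order in this group, at 270, 92.1 and 206 CPM in order of replicate. Over the 14 libraries Erbb3 had Pearson correlations of 0.46 with the Schwann cell sum, 0.57 with the mural cell sum and 0.54 with the tendon sum. Without the 2 farthest libraries they were 0.33, 0.07 and 0.13. The part of these cell types in Erbb3 was not tested.

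Erbb4, the receptor shared by neuregulins, Btc and Hbegf, was rare in every library and lowest in OE-WD. CT-CTD had 0.870, 0.836 and 0.675 CPM, CT-WD 0.976, 0.483 and 0.578 CPM, OE-CTD 0.536, 0.462, 0.824 and 0.867 CPM, and OE-WD 0.350, 0.315, 0.425 and 0.281 CPM. All 4 OE-WD libraries, with 7 to 10 reads each, lay below every library of the other groups. OE-WD differed from OE-CTD by -0.95 (SE 0.353, adjusted p = 1) and from CT-WD by -0.996 (SE 0.376, adjusted p = 0.200) on the log2 scale, so neither passed the adjusted level. The value against CT-WD was -1.18 with CT-WD 2 left out and -0.63 with CT-WD 1 left out, where its unadjusted p of 0.161 no longer passed 0.05. The difference from OE-CTD was -0.04 on the log2(FPKM + 1) scale, which compresses genes this low. The mean genotype difference was -0.62 (adjusted p = 0.153), the mean diet difference -0.58 (adjusted p = 0.793), and the interaction -0.74 (adjusted p = 0.893), or -0.37 with CT-WD 1 left out.

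Among the ligands, Egf was the most even, between 29.8 and 42.7 CPM, and did not separate the groups. Its means were 37.5 ± 5.75 CPM (SD, n = 3) in CT-CTD, 32.8 ± 4.02 CPM (SD, n = 3) in CT-WD, 39.5 ± 2.63 CPM (SD, n = 4) in OE-CTD and 36.1 ± 1.71 CPM (SD, n = 4) in OE-WD. The mean over both diet comparisons was -0.16 (SE 0.0754, adjusted p = 0.823) on the log2 scale, with -0.19 in CT and -0.13 in EC-Myc OE. Egf shares exon bases with antisense transcripts, 500 with 6330410L21Rik (mean 1.71 CPM) and 607 with Gm42697 (mean 0.239 CPM), and whether counting used strand is not given in the sources used here.

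Hbegf, a ligand released by metalloproteases, was high in 1 library. CT-CTD had 10.04, 13.3 and 18.8 CPM, CT-WD 16.3, 13.4 and 49.3 CPM, OE-CTD 13.2, 12.2, 14.8 and 19.9 CPM, and OE-WD 13.1, 9.81, 13.9 and 18.8 CPM. CT-WD 3 had 1109 reads, and without it all groups overlapped. CT-WD and CT-CTD differed by 0.91 (SE 0.392, adjusted p = 0.646), and OE-WD and CT-WD by -0.92 (SE 0.362, adjusted p = 0.217). Without CT-WD 3 these were 0.08 (adjusted p = 0.995) and -0.10 (adjusted p = 0.941).

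Betacellulin (Btc) was scarce and had its higher levels in EC-Myc OE. CT-CTD had 0.395, 0.502 and 0.159 CPM and CT-WD 0.434, 0 and 0.267 CPM, where the 0 in CT-WD 2 allows a level of up to 0.145 CPM. OE-CTD had 0.575, 0.758, 1.24 and 0.969 CPM, and OE-WD had 0.233, 1.26, 0.808 and 0.803 CPM. All OE libraries except OE-WD 1, which had 6 reads, lay above all 6 CT libraries. Averaged over diets the genotypes differed by 1.48 (SE 0.473, adjusted p = 0.0650) on the log2 scale, just outside the adjusted level. The difference was 1.32 (adjusted p = 0.346) on control diet and 1.65 (adjusted p = 0.241) on WD. Single libraries moved these widely, between 0.97 (CT-CTD 3 left out) and 1.65 (CT-CTD 2 left out) on control diet, and between 1.13 (CT-WD 2 left out) and 2.46 (CT-WD 1 left out) on WD. The adjusted p of the average was 0.0140 in DESeq2, 0.0265 without CT-WD 1, 0.0345 without OE-WD 1 and 0.156 without CT-CTD 3.

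Nrg4, a neuregulin that binds Erbb4 and is known as a secreted factor of fat tissue, gave no p under 0.05 in edgeR's test with all libraries. Levels were 1.90, 1.422 and 1.75 CPM in CT-CTD, 1.84, 0.531 and 0.666 CPM in CT-WD, 1.15 to 1.418 CPM in OE-CTD, and 0.765 to 1.47 CPM in OE-WD. CT-WD 2 and CT-WD 3 were the lowest libraries, and CT-WD 1 was near the top. CT-WD and CT-CTD differed by -0.70 (SE 0.406, adjusted p = 0.796), and by -1.49 (adjusted p = 0.122) without CT-WD 1. The unadjusted p there was 0.00137, and without CT-WD 1 it was also under 0.05 between OE-WD and CT-WD (0.0301), for the interaction (0.0136) and for the averaged diet (0.00252). Limma on log2(FPKM + 0.1) gave 0.0460 between CT-WD and CT-CTD, and no setting brought an adjusted p under 0.05. The 7 adipocyte markers, led by Fabp4, had a median log2 fold change of -0.87 between CT-WD and CT-CTD, with 0 altered at the adjusted level. Their sums overlapped, at 509, 315 and 241 CPM in CT-CTD and 382, 257 and 283 CPM in CT-WD. Fabp4, the most abundant, had 327, 228 and 196 CPM in CT-CTD and 238, 216 and 260 CPM in CT-WD. For the interaction the median of the 7 markers was 0.76, where Nrg4 had 0.51. Nrg4 and the adipocyte sum had a Pearson correlation of 0.37 (Spearman 0.50), and of 0.36 after the group means were taken off. The part of fat cells in Nrg4 was not tested. The gene model of Nrg4 shares 368 exon bases with Fbxo22 on the opposite strand, which had a mean of 20.4 CPM, so its reads are uncertain if strand was not used.

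Nrg1, the neuregulin of motor neurons, was close to absent in whole muscle RNA. It had 3 reads in CT-CTD 1, 6 in CT-WD 1, 1 in OE-CTD 3, 1 in OE-WD 3 and 2 in OE-WD 4, and 0 in the other 9 libraries. At this depth a difference between groups was not detectable, and no fold change was computed.

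Across the whole family the members' share of calls can be read only against all genes. Between CT-WD and CT-CTD, edgeR called 0 of 8 tested members altered at the adjusted level, and 0% of all genes. DESeq2 called 1, Egfr, beside 31 of 15458 genes, edgeR without the filter also 1, Egfr, beside 88 of 27899, and limma on log2(FPKM + 1), the limma setting of these counts, 0 beside 0. At an unadjusted p under 0.05 and the same fold, Egfr and Hbegf (2 members) were higher in CT-WD, where 3.05% of all genes passed. Between OE-WD and OE-CTD the adjusted counts were 0 in edgeR, DESeq2 and limma, beside 0.00647% of all genes in edgeR and 1 and 1 genes in the others, and 1 member, Erbb4, was lower at the unadjusted level, beside 1.37% of all genes. Between OE-WD and CT-WD the adjusted counts were again 0 in edgeR, DESeq2 and limma, beside 0.563% of all genes in edgeR and 309 and 30 genes in the others, and at the unadjusted level 1 member, Btc, was higher and 2, Erbb4 and Hbegf, were lower, beside 5.74%. Without the filter 1, Hbegf, passed the adjusted level there, beside 401 of 27899 genes. Between OE-CTD and CT-CTD, 1 member, Egfr, was altered at both levels in edgeR, beside 1.91% of all genes at the adjusted and 7.12% at the unadjusted level, and DESeq2 called 1, Egfr, beside 509 genes and limma 0 beside 117.

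For the interaction, 0 members passed the adjusted level in edgeR, DESeq2 and limma, as did 0% of all genes in edgeR and 3 and 0 genes in the others, and 1 member, Egfr, passed the unadjusted level, beside 2.70% of all genes. For the genotype averaged over diets, 0 members passed in edgeR, beside 3.64% of all genes, 1 (Btc) in DESeq2, beside 728 genes, 0 in limma on log2(FPKM + 1), beside 189, and 1 (Btc) on log2(FPKM + 0.1), beside 493. In edgeR 2 members, Btc and Erbb4, passed the unadjusted level in opposite directions, beside 7.18%. For the diet averaged over genotypes, 0 members passed in edgeR, DESeq2 and limma at the adjusted level, beside 0.00647% of all genes in edgeR and 15 and 1 genes in the others, and 0 passed the unadjusted level with the fold limit, beside 1.60%. The comparisons share libraries. These shares of all genes also moved with single libraries, so they are a loose measure. The count of all genes altered between OE-WD and CT-WD went from 87 to 905 without CT-WD 1 and 4 without OE-WD 2, that between OE-CTD and CT-CTD from 295 to 64 without CT-CTD 3 and 440 without CT-WD 1, and that for the genotype from 562 to 335 without CT-WD 2 and 1111 without CT-WD 1. Without CT-WD 1 it was 41 rather than 0 between CT-WD and CT-CTD. The median log2 fold change of the 8 tested members was -0.20 between CT-WD and CT-CTD, -0.12 between OE-WD and OE-CTD, 0.12 between OE-WD and CT-WD, 0.08 for OE-CTD over CT-CTD, 0.08 for the interaction, 0.12 for the genotype and -0.14 for the diet, and no test of the members as a set was made.

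**Figure D2:**
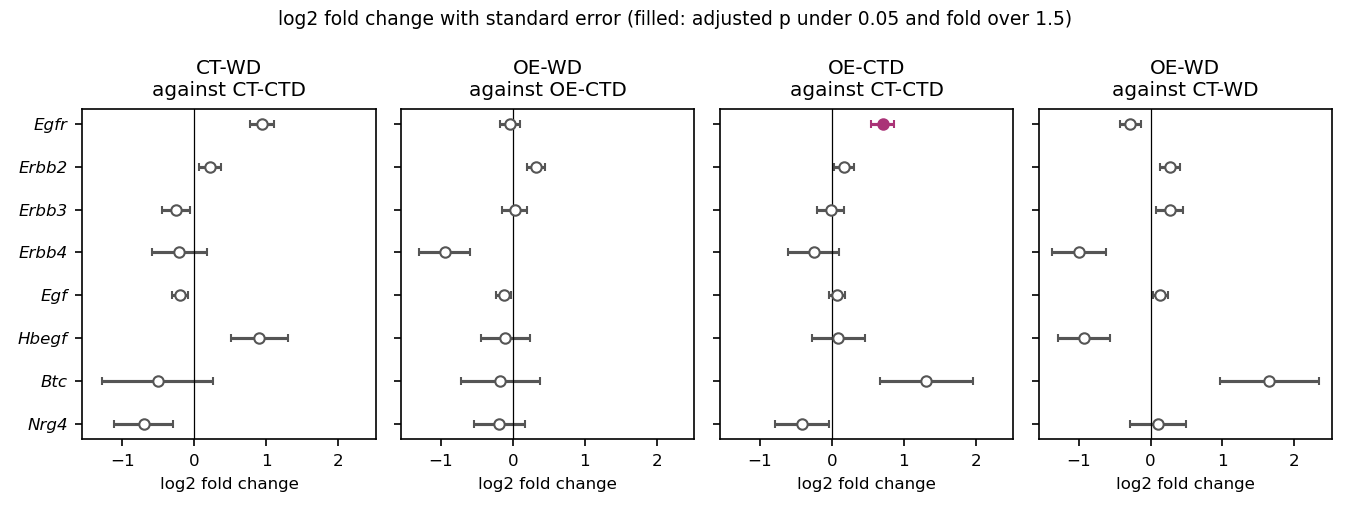
log2 fold change (horizontal axes) with its standard error for the 8 tested genes (vertical axis) in 4 comparisons, where the filled point has an adjusted p under 0.05 and a fold over 1.5. Only Egfr between OE-CTD and CT-CTD is filled, at 0.71, and Btc has the widest bars.

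Other genes of the pathway were taken from lists of 79, of which 73 had enough reads to be tested. Of the 6 other ligands, Areg, Ereg, Epgn and Nrg3 were not testable, with at most 9 reads in a library, and Tgfa and Nrg2 were low, with group means of 0.738 to 1.04 CPM and 0.226 to 0.374 CPM. None of the 5 tested sheddases and trafficking genes, which free the ligands from the membrane, was altered in any comparison (0 genes in edgeR by adjusted p, and 0 by unadjusted p with the fold limit). Across the 73 genes the median log2 fold change was -0.04 between CT-WD and CT-CTD, 0.05 between OE-WD and OE-CTD, 0.09 between OE-WD and CT-WD and 0.05 between OE-CTD and CT-CTD.

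Between OE-CTD and CT-CTD, 1 of the 73 rose and 0 fell in edgeR's test (3 and 1 at the unadjusted level, where 7.12% of all genes passed), beside 183 of all 15458 genes that rose and 112 that fell, and DESeq2 called 2 (among 509 genes called in all) and limma 0 (among 117). It was Spry4, a Sprouty protein that is induced by receptor tyrosine kinase signaling and feeds back on it. Spry4 had 5.97, 4.31 and 3.29 CPM in CT-CTD and 10.3, 11.9, 12.7 and 7.04 CPM in OE-CTD, so the groups did not overlap, and differed by 1.22 (SE 0.304, adjusted p = 0.0453). The call was lost without CT-CTD 2 or 3, OE-CTD 1, 2 or 3, or OE-WD 1, with adjusted p-values from 0.0584 to 0.219. Other settings called more pathway genes here. With the replicate block 3 rose and 1 fell (Spry4, Spred2, Egr1 and Musk), beside 388 of all genes. Without the filter 2 rose and 1 fell, beside 570 of 27899 genes, and without OE-CTD 4 the rises were 3, beside 309 genes. Between OE-WD and CT-WD, 0 rose and 1 fell (2 and 2 at the unadjusted level, where 5.74% of all genes passed), beside 39 and 48 of all genes, and DESeq2 called 3 (among 309 genes called in all) and limma 0 (among 30). The gene was Cblb, a ubiquitin ligase that directs activated receptors to degradation. Cblb had 26.6, 27.2 and 31.1 CPM in CT-WD and 20.8, 17.0, 18.02 and 16.5 CPM in OE-WD, and fell by 0.65 (SE 0.138, adjusted p = 0.0437) on the log2 scale. Leaving out 1 library brought its adjusted p above 0.05 for 9 of the 14, up to 0.203 without CT-WD 3. The call was also lost with the replicate block (adjusted p = 0.0536) and with the compared groups alone (adjusted p = 0.115), where 77 and 4 of all genes were called. Without CT-WD 1, 2 pathway genes rose and 3 fell (Cblb, Spred2, Ccnd1, Chrnb1 and Musk), beside 905 of all genes. Without the filter 2 rose and 2 fell, beside 401 of 27899 genes.

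With both diets averaged, 3 pathway genes rose and 1 fell between genotypes, beside 371 and 191 of all genes. The risers belong to the 15 feedback and target genes: Ccnd1, the cyclin that drives entry into the cell cycle, at 0.94 (SE 0.201, adjusted p = 0.0109), Spry4 at 0.88 (SE 0.214, adjusted p = 0.0207), and Spred2, an inhibitor of Ras to MAP kinase signaling, at 0.60 (SE 0.116, adjusted p = 0.00622). Ccnd1 kept its call with each library left out, whereas Spry4 and Spred2 lost theirs without several. DESeq2 called the same 4 genes among 728 in all, limma on log2(FPKM + 1) only Ccnd1 among 189, and limma on log2(FPKM + 0.1) only Spry4 and Ccnd1 among 493. Spred2 had 6.57 to 9.21 CPM in the 6 CT libraries and 10.5 to 16.5 CPM in the 8 OE libraries, with no overlap. In this average 5 of 6 fibroblast markers rose too (median 0.71), and 2 of 5 tendon markers (median 1.13). OE-WD 2 and OE-CTD 2 had the highest Spred2 (16.5 and 15.0 CPM) and the highest fibroblast sums (1566 and 1082 CPM). Spry4, however, was lowest of the OE libraries in OE-WD 2, at 4.91 CPM. The part of these cell types in the pathway genes was not tested. Musk, the junction's receptor for agrin, 1 of 11 neuregulin target genes listed and also 1 of the junction markers, fell by 0.96 (adjusted p = 0.0238), with 20.6 to 62.4 CPM in CT and 13.9 to 28.9 CPM in OE, and was not called without CT-CTD 3, CT-WD 2, CT-WD 3, OE-CTD 2 or OE-WD 2. Its lists did not go with it, as the median in this average was 0.06 over the 11 targets and 0.15 over the 6 junction markers, and Musk was the 1 gene called in either. Ccnd1 is also a known target of c-Myc, and the transgene's part in these values was not tested.

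In edgeR's test with the filter on low counts, 0 pathway genes passed the adjusted level in the comparisons of diet or in the interaction, so those with the smallest p are named. Between CT-WD and CT-CTD they were Errfi1, an inhibitor that binds Egfr directly, at 0.52 (adjusted p = 0.394), Nras at -0.34 (adjusted p = 0.475) and the immediate early gene Egr1 at 1.61 (adjusted p = 0.595). Errfi1 had 49.2, 46.2 and 41.7 CPM in CT-CTD and 58.9, 57.0 and 80.2 CPM in CT-WD, without overlap. Between OE-WD and OE-CTD they were Gabpb1, Spry4 and Stat5a, at 0.41, -0.60 and -0.20 with adjusted p-values near 1. For the interaction they were Egr1 at -2.41 (adjusted p = 0.825), Nras at 0.38 (adjusted p = 0.825) and the sheddase Adam10 at 0.36 (adjusted p = 0.834). For the diet averaged over genotypes they were Errfi1 at 0.32 (adjusted p = 0.487), Stat5a at -0.22 (adjusted p = 0.649) and Gabpb1 at 0.25 (adjusted p = 0.649). At the unadjusted level with the fold limit, edgeR had 3 pathway genes higher and 1 lower between CT-WD and CT-CTD, 0 and 1 between OE-WD and OE-CTD, 0 and 1 for the interaction, and 0 and 0 for the averaged diet, beside 3.05%, 1.37%, 2.70% and 1.60% of all genes. DESeq2 and limma called 0 of them at the adjusted level. Without the filter, edgeR called Egr1 altered between CT-WD and CT-CTD (upward) and in the interaction (downward), beside 88 and 29 of 27899 genes.

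Markers of other cell types moved with several of these genes, and in whole muscle fewer cells of a type and less RNA per cell cannot be told apart. The 6 fibroblast markers, all read in every library and led by Dcn, summed to 435, 408 and 319 CPM in CT-CTD, 981, 355 and 353 CPM in CT-WD, 923, 1082, 1027 and 635 CPM in OE-CTD, and 704, 1566, 895 and 744 CPM in OE-WD. Of these genes 5 rose at the adjusted level in the genotype average in edgeR's test. Egfr was low in the 3 CT-CTD libraries, where this sum was low too, but CT-WD 2 and CT-WD 3 had 9.66 and 12.0 CPM of Egfr at fibroblast sums within the CT-CTD range. Over the 14 libraries, Egfr and the fibroblast sum had a Pearson correlation of 0.51 (Spearman 0.38). It was 0.38 without the 2 farthest libraries and 0.47 after the group means were taken off. The 6 macrophage markers, led by Csf1r, summed to 43.2, 27.8 and 22.2 CPM in CT-CTD, 68.5, 32.3 and 28.3 CPM in CT-WD, 42.0 to 66.3 CPM in OE-CTD and 41.5 to 72.6 CPM in OE-WD. Over the 14 libraries, Egfr and the macrophage sum had a Pearson correlation of 0.62 and a Spearman correlation of 0.55 on log2 values, from libraries that share depth and normalization, with a Pearson correlation of 0.50 without the 2 farthest. The endothelial sum, whose values follow below, was lower in all 3 CT-CTD libraries than in every other library, as Egfr was, and its Pearson correlation with Egfr was 0.60 (Spearman 0.38, 0.28 without the 2 farthest libraries), but 0.06 after the group means were taken off. The part of any of these cell types in the Egfr difference was not tested.

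Erbb2 tracked the markers of endothelial cells, in which the transgene is driven. All 10 markers, led by Eng, were read in every library and summed to 433, 444 and 461 CPM in CT-CTD, 522, 482 and 549 CPM in CT-WD, 555, 568, 538 and 487 CPM in OE-CTD, and 574, 581, 599 and 575 CPM in OE-WD. For both, CT-CTD was lowest and OE-WD highest by group mean. Over the same 14 libraries their log2 levels correlated most closely of all members and marker lists (Pearson 0.86, Spearman 0.88, 0.85 without the 2 farthest libraries, and 0.83 after the group means were taken off). Btc correlated with the fibroblast sum (Pearson 0.74, Spearman 0.73, 0.66 without the 2 farthest libraries, and 0.62 after the group means were taken off) and about as closely with the tendon sum (Pearson 0.73, Spearman 0.71, 0.69 without the 2 farthest libraries, and 0.50 after the group means were taken off) and the macrophage sum (Pearson 0.68, Spearman 0.71, 0.57 without the 2 farthest libraries, and 0.64 after the group means were taken off). The 5 tendon markers, led by Fmod and all read in every library, summed to 223, 98.8 and 158 CPM in CT-CTD, 443, 81.6 and 105 CPM in CT-WD, 382, 559, 462 and 289 CPM in OE-CTD, and 382, 775, 515 and 286 CPM in OE-WD, and 2 of them rose at the adjusted level in the genotype average, with a median of 1.13 over the 5. Egfr and the tendon sum had a Pearson correlation of 0.43, and of 0.62 after the group means were taken off. Erbb4 ran opposite to the endothelial sum (Pearson -0.71, Spearman -0.81, -0.62 without the 2 farthest libraries, and -0.28 after the group means were taken off). Hbegf correlated with the satellite cell sum, most of which is Cdh15 (Pearson 0.70, Spearman 0.56, 0.61 without the 2 farthest libraries, and 0.79 after the group means were taken off), and with the neuromuscular junction sum, led by Musk (Pearson 0.69, Spearman 0.58, 0.45 without the 2 farthest libraries, and 0.74 after the group means were taken off). The 6 epidermis markers, led by Krt5, summed to 38.7, 5.02 and 10.5 CPM in CT-CTD, 17.0, 27.8, 31.9 and 3.26 CPM in OE-CTD and 13.5, 59.6, 97.1 and 32.5 CPM in OE-WD, and 3 of the 6 were read in every library. Their median log2 fold change was 1.28 between OE-WD and OE-CTD and 1.08 for the averaged diet, with 0 of the 6 altered at the adjusted level in edgeR's test. The epidermis sum had a Pearson correlation of 0.57 with Erbb2, 0.36 with Egfr and 0.24 with Nrg4, and of 0.39, 0.49 and 0.55 after the group means were taken off. For Egfr it was 0.60 without the 2 farthest libraries. What these markers contribute to the levels was not tested.

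**Figure D3:**
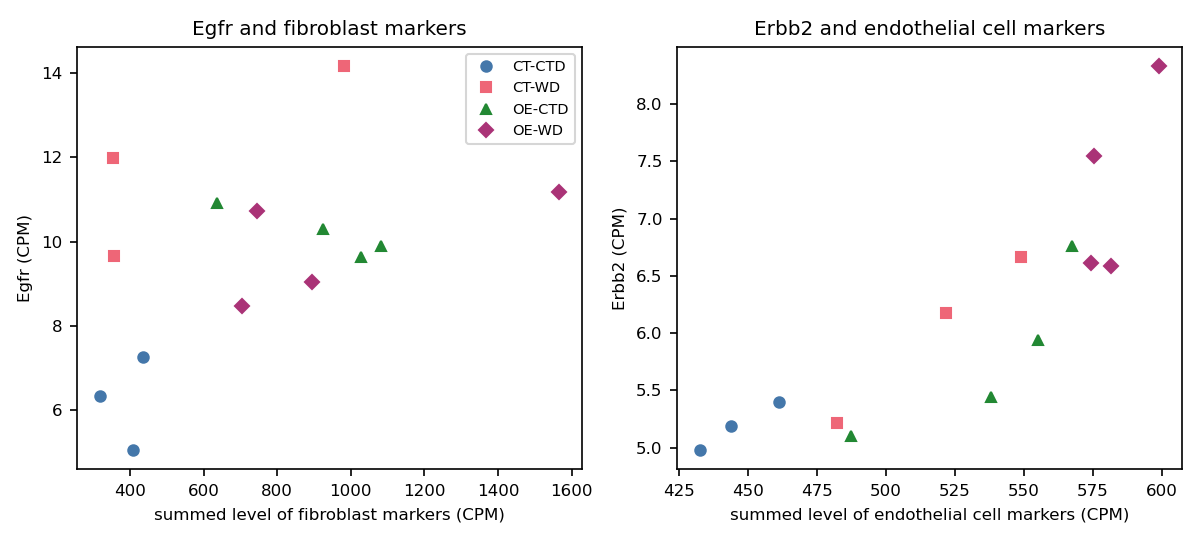
Egfr (CPM, left vertical axis) against the summed CPM of 6 fibroblast markers, and Erbb2 (CPM, right vertical axis) against that of 10 endothelial markers, with each library a point marked by group. CT-WD 2 and CT-WD 3 lie at 355 and 353 CPM of fibroblast markers with Egfr at 9.66 and 12.0 CPM, while Erbb2 climbs with the endothelial sum (Pearson 0.86).

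All 9 genes are protein coding, and their positions on GRCm38 in the count table equal those of GENCODE M21 except the start of Hbegf, which differs by 2 bases. Egfr (ENSMUSG00000020122) lies at chr11:16752203-16918158 and Erbb2 (ENSMUSG00000062312) at chr11:98412470-98437716, both on the plus strand. Erbb3 (ENSMUSG00000018166) lies at chr10:128567523-128589652, Erbb4 (ENSMUSG00000062209) at chr1:68032186-69108059 and Egf (ENSMUSG00000028017) at chr3:129677565-129755316, all on the minus strand. The other ligands are also on the minus strand, Hbegf (ENSMUSG00000024486) at chr18:36504929-36515805, Btc (ENSMUSG00000082361) at chr5:91357261-91402994, Nrg1 (ENSMUSG00000062991) at chr8:31814551-32884029 and Nrg4 (ENSMUSG00000032311) at chr9:55220222-55326844. Erbb2 shares 9 exon bases with the antisense gene Mien1 (mean 4.47 CPM), and Egfr shares 0 with any other gene.

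For each member with a mean of at least 1 CPM, the 3 protein-coding genes of most similar pattern were sought among 11782 by Pearson correlation of log2 CPM over the 14 libraries, which share their groups and normalization. For Egfr they were Sash1 (0.87), Zfp36 (0.87) and Icam1 (0.85), which changed to 0.68, 0.57 and 0.65 without CT-CTD 2 and CT-CTD 3. After the group means were taken off, Sash1 kept 0.88, Zfp36 0.72 and Icam1 0.35. For Erbb2 they were Krt77 (0.88), Tnfrsf22 (0.87) and Osbpl5 (0.87), and for Erbb3 Rab21 (0.85), Bbs2 (0.84) and Rgl3 (0.82). For Egf they were Dok4 (0.85), Rngtt (0.85) and Arl6ip5 (0.82), and for Nrg4 D10Wsu102e (0.87), Abhd13 (0.85) and Ap3m1 (0.81). Those of Nrg4 changed to 0.80, 0.73 and 0.53 without CT-WD 2 and CT-WD 3. Hbegf had the closest companions, Klhl40 (0.95), Rxrg (0.93) and Hspb1 (0.93), of which 0.74, 0.80 and 0.71 were left without CT-WD 3 and OE-CTD 4.

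Between members, Pearson correlations were mostly weak over the 14 libraries. Strongest were Erbb2 and Erbb4, which ran opposite (-0.71), but within groups the correlation was -0.18. Egfr and Nrg4 did the reverse, with -0.16 across all libraries and 0.82 after the group means were taken off, and Egf and Hbegf had 0.26 and 0.72. With group means off, Egfr and Nrg4 both correlated with the macrophage sum (0.62 and 0.76), the tendon sum (0.62 and 0.71) and the fibroblast sum (0.47 and 0.73), and the part of cell types in this was not tested. Across all libraries Nrg4 had 0.29, 0.30 and 0.22 with the same 3 sums. Egfr and its ligands had -0.34 (Egf), 0.30 (Hbegf) and 0.21 (Btc) across all libraries, and -0.38, 0.07 and 0.57 after the group means were taken off.

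Promoters credited to RefSeq, on GRCm38.p6, matched 6 of the 9 members (all but Erbb3, Hbegf and Nrg1). The 250 bases before the start were searched on both strands for CACGTG, the E-box that c-Myc and Max bind, for GGGCGG, called GC box, and for TATAAA, known as TATA box. These letters were in 6.02%, 32.7% and 12.4% of the same windows of all 32851 promoters. None of the windows of the 6 members held the E-box or the TATA box, and 1 GC box was found, in Egfr. Egf had a further window, chr3:129725087-129725336, inside its gene model. The only Nrg4 window, chr9:55283626-55283875, also lies inside its gene model, so the bases before the outer start of Nrg4 were not searched. A match or its absence describes these letters in this window and nothing about a factor. Egfr is shown because it was altered and held the match, with the GC box in capitals (on the opposite strand), and Erbb4 and Btc because they had the largest fold changes among members with a promoter. The windows, written on the strand of the gene, are chr11:16751953-16752202 (plus strand) for Egfr, chr1:69108060-69108309 (minus strand) for Erbb4 and chr5:91402995-91403244 (minus strand) for Btc.
Egfr: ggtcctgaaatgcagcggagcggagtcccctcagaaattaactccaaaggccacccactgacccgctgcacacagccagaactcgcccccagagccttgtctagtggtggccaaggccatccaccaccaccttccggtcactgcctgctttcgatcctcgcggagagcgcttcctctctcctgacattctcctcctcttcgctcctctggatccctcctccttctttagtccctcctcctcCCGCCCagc
Erbb4: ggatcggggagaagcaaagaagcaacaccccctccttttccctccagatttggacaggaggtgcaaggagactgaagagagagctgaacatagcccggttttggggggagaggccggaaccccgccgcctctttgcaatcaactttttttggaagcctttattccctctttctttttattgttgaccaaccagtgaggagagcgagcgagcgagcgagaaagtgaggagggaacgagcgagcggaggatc
Btc: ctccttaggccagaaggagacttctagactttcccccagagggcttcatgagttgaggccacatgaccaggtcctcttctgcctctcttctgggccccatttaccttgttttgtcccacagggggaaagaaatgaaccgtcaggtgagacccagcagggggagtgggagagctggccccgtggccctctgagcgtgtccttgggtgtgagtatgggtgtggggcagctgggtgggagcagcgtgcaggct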

How the data were processed

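Poly-A RNA of skeletal muscle was sequenced in 14 libraries of 4 groups. The authors deposited raw counts per Ensembl gene, made per the labels with HISAT2 2.0.5 and featureCounts 1.5.0-p3 on mm10, with the strand setting not stated. They also deposited FPKM, which are those counts divided by gene length and by a library total that the authors scaled and that came to between 79.9 and 98.0% of the summed counts. Gene positions, lengths and biotypes were read from the same tables.

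From the counts, genes were filtered with filterByExpr (15458 of 54532 kept) and normalized by TMM, and 1 mean per group was fitted over all 14 libraries with edgeR 4.0.16 in R 4.3.3, with a common biological coefficient of variation of 17.0%. Each of 7 comparisons was tested with the quasi-likelihood F statistic, with Benjamini-Hochberg adjustment over all tested genes. Altered means a fold over 1.5 at an adjusted p under 0.05, and the same fold at an unadjusted p under 0.05 was counted beside it. Fold changes are log2, with their standard error (SE). Alternatives were DESeq2 1.42.0, limma 3.58.1 on log2(FPKM + 1) and log2(FPKM + 0.1), RLE normalization, no filter, the compared groups alone, a replicate block and each library left out, and after the data were seen also OE-CTD 4 and OE-WD 4 left out together. Same-numbered CT libraries of both diets deviated together (correlations of 0.38, 0.12 and 0.20), so their numbers were taken to pair them in the replicate block, which the labels do not state. The block tied same-numbered libraries of all 4 groups, also across genotypes, where correlations ran from -0.23 to 0.05. The description codes of CT-CTD 1 and CT-WD 1 are adjacent, and those of the other CT libraries run consecutively over both diets. CT-CTD 1 and CT-WD 1 also had the highest tendon and epidermis sums of their groups. The scripts were tested on simulated data.

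Named are all 9 members, pathway genes altered in a comparison or else the 3 with the smallest p in it, and 3 genes of like pattern per member. Correlations with markers used log2 of member CPM with 0.1 added, those between genes used log2 CPM with a prior count of 2, and levels under 3 reads were taken as not separable from 0. The 2 farthest libraries were those farthest from the median of the marker sum, or of the member for genes of like pattern. With markers, a library extreme in the member, such as CT-WD 2 for Btc, can therefore stay in. Members, pathway lists and cell type markers were chosen with earlier results of these data known, so no p-value here is independent support. Overlaps were read from GENCODE M21 and promoters from RefSeq on GRCm38.p6. Figures were drawn with matplotlib 3.10.9.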

Additional observations from a re-analysis of the deposited data

Results flagged for a closer look

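In OE-CTD, Nrg1 was at 0.0412 CPM in OE-CTD 3 and at 0 in the other 3 libraries, which made that library stand out from its group. It was 1 read. Among the 18 groups of values looked at this way, chance flags about 1 in 20. That rate does not hold for Nrg1, where any 1 library with reads beside others at 0 is flagged.

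The log2 fold change of Egfr between genotypes had opposite signs on the diets, 0.71 on control diet, which passed in edgeR, and -0.28 on WD, which did not (adjusted p = 0.368), and the gap between them, -0.986 on the log2 scale, marked it for a closer look. The interaction test in edgeR, which allows for all 15458 genes, gave an adjusted p of 0.675, so the gap did not pass. On control diet the groups did not overlap, and on WD they did. What sets the level of Egfr in these groups was not tested.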

How the results depend on the processing

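The number of members altered at the adjusted level depended on the tool, the filter or single libraries in 4 of the 7 comparisons. Between CT-WD and CT-CTD it was 0, and 1 (Egfr) with DESeq2 and without the filter on low counts. Between OE-WD and CT-WD it was 0, and 1 (Hbegf) without that filter. Between OE-CTD and CT-CTD it was 1 (Egfr), 0 with limma on log2(FPKM + 1) (0.31, adjusted p = 0.0665) and on log2(FPKM + 0.1) (0.64, adjusted p = 0.0573), and 0 to 1 with libraries left out in turn. For the genotype averaged over diets it was 0, and 1 (Btc) with DESeq2 (1.51), without the filter (1.48) and with limma on log2(FPKM + 0.1) (0.82), and 0 to 1 with libraries left out. The cause was not tested. The other 3 comparisons kept 0 in every setting.

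With the replicate block, Egfr was 0.68 between OE-CTD and CT-CTD (adjusted p = 0.0384) and 0.94 between CT-WD and CT-CTD (adjusted p = 0.220), and no member's call at the adjusted level changed. The unadjusted count of members went from 3 to 2 between OE-WD and CT-WD and from 1 to 2 for the interaction, and Cblb was -0.59 (adjusted p = 0.0536) under it. Among pathway genes the block gave 3 rises and 1 fall between OE-CTD and CT-CTD (Spry4, Spred2, Egr1 and Musk) where 1 and 0 were called without it, and 5 and 1 rather than 3 and 1 between genotypes, adding Dusp4 and Egr1. The count of all genes called also went up under the block, from 295 to 388 and from 562 to 687. Same-numbered libraries of both OE groups had correlations of 0.07, 0.14, 0.14 and 0.34, of which the lowest missed the limit of 0.1, and those across genotypes ran from -0.23 to 0.05. The block tied same numbers across genotypes too, so its calls between genotypes rest on a pairing that these correlations do not show.

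With each library left out, log2 fold changes ran from 0.80 to 1.07 for Egfr between CT-WD and CT-CTD, -1.12 to -0.84 for its interaction, 1.22 to 1.89 for Btc between genotypes and -1.10 to -0.81 for Erbb4 between OE-WD and OE-CTD. For members with an unadjusted p under 0.05 in a comparison and altered pathway genes, of the fold changes under the alternatives 417 kept direction and side of the threshold, 47 no longer passed, 8 newly passed, and 0 turned direction. Other members with values near 0 did change sign, such as Nrg4 between genotypes (-0.30 to 0.23) and Egfr between OE-WD and OE-CTD (-0.11 to 0.02). Groups of 3 and 4 and low counts of Erbb4, Btc and Nrg1 limit what could be detected.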
